A study of Rattus norvegicus with 96 samples.

Results

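The AA and ANA rat lines were compared in the central nucleus of the amygdala. This comparison takes 20 of the 96 arrays of the series, namely all arrays whose title names the AA.ANA line pair: 10 of AA, labelled as the alcohol-preferring line, and 10 of ANA, labelled as the non-preferring line. Every array holds the RNA of 1 numbered animal; AA animals carry the odd numbers 1 to 19 and ANA animals the even numbers 2 to 20. The animals are selectively bred rats, and neither a transgene nor a treatment is named for either line. The labels name no sex, age, alcohol exposure or date. The other 4 pairs of selected lines (HAD1/LAD1, HAD2/LAD2, P/NP and sP/sNP) served only to place this pair among them.

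The AA (Alko, Alcohol) and ANA (Alko, Non-Alcohol) lines were bred for high and low voluntary drinking of alcohol solutions. The central amygdala is a mostly GABAergic nucleus that shapes responses to fear, stress and drugs, with peptides such as enkephalin, dynorphin, somatostatin and corticotropin-releasing hormone. Animals of a selected line share descent, so lines can differ at genes that selection acted on and at genes that came to differ by drift. With 1 line pair, selection and drift cannot be told apart. An array value can also shift where the lines differ in sequence under a probe.

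Of 17 measured markers of central amygdala neurons, the levels ranged widely. The mean log2 level over the 20 arrays was 14.43 for Penk (proenkephalin), 14.38 for Gad1 (a GABA-synthesising enzyme), 13.26 for Sst (somatostatin) and 12.97 for Pdyn (prodynorphin), between percentiles 97.1 and 99.7 of all 14217 genes. Penk is also on the list of striatal markers used here. Prkcd, which marks a lateral cell group of the nucleus, was at 9.80 and Crh, corticotropin-releasing hormone, at 9.87, percentiles 62.3 and 63.5. Dlk1, Isl1 and Calcrl were lower, at percentiles 47.9, 37 and 14.4. Neurod6, a marker of cortical and basolateral excitatory neurons, ran from 5.26 to 10.89 over the 20 arrays. The Y-linked gene Eif2s3y lay between 10.27 and 11.14 on all 20 arrays. Array medians were 7.80 to 7.86 in AA and 7.77 to 7.88 in ANA. The log2 ratio of the 3' to the 5' GAPDH probe set, which rises with RNA degradation, was 0.86 on AA 17 and 0.26 to 0.56 on the other 19 arrays.

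Whether each array resembled the line on its label was measured first, because every later value rests on it. Each array was scored on the 100 probe sets that best separated AA from ANA in the other 19 arrays, with +1 at the AA median and -1 at the ANA median, separately for odd-numbered and even-numbered chromosomes. The 7 AA arrays 1 to 13 scored 0.80 to 1.226 on odd and 0.67 to 1.02 on even chromosomes, and the 7 ANA arrays 2 to 14 scored -1.02 to -0.75 and -1.04 to -0.37. All 14 of these lay on the side of their label.

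The 6 arrays with the numbers 15 to 20 departed from this pattern. AA 15 scored -1.06 and -1.15, and AA 17 scored -1.11 and -1.04, both at the level of ANA. ANA 16 scored 1.18 and 1.08, at the level of AA. AA 19 was at -0.85 and -0.69, ANA 18 at 0.07 and 0.02, and ANA 20 at 0.27 and -0.15. Arrays past 0 towards the opposite line in both scores are called misfits, and there were 5: AA 15, ANA 16, AA 17, ANA 18 and AA 19. ANA 18 lay close to the midpoint, and with 50 or 200 probe sets in the score, with only probe sets above the median level, or after another quantile normalization there were 4, all but ANA 18.

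The same scoring placed ANA 18, AA 19 and ANA 20 with another line pair. On probe sets that separate AA and ANA arrays from sP and sNP arrays, with +1 at the AA and ANA median and -1 at the sP and sNP median, these 3 arrays scored -1.03 to -0.95 on odd and -1.03 to -0.93 on even chromosomes. The other 17 AA and ANA arrays scored 0.88 to 1.215 and 0.92 to 1.19, and the 17 arrays labelled sP or sNP scored -1.11 to -0.84 and -1.07 to -0.81. The groups of arrays do not overlap on this score. Against the HAD2/LAD2, HAD1/LAD1 and P/NP arrays, the 3 arrays stayed on the AA and ANA side, at 0.78 or above.

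Among all 96 arrays, the one nearest to ANA 18 was sNP 5, with an SD of 0.172 log2 units of the differences over probe sets; the nearest to AA 19 was sP 3 (SD 0.1695 log2 units) and the nearest to ANA 20 was sNP 1 (SD 0.167 log2 units). For the other 17 arrays the nearest array lay at an SD of 0.201 to 0.393 and always belonged to AA or ANA. On the axis from sNP at -1 to sP at +1, AA 19 scored 0.87 and 1.16, ANA 18 scored -0.98 and -0.94, and ANA 20 scored -1.03 and -0.87. The 3 arrays thus lay at the level of the sP or sNP line with the same preference label as their own. Of the remaining misfits, AA 15 was nearest to ANA 14, AA 17 to ANA 12 and ANA 16 to AA 9. How these 6 arrays came to their positions was not tested.

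**Figure D1:**
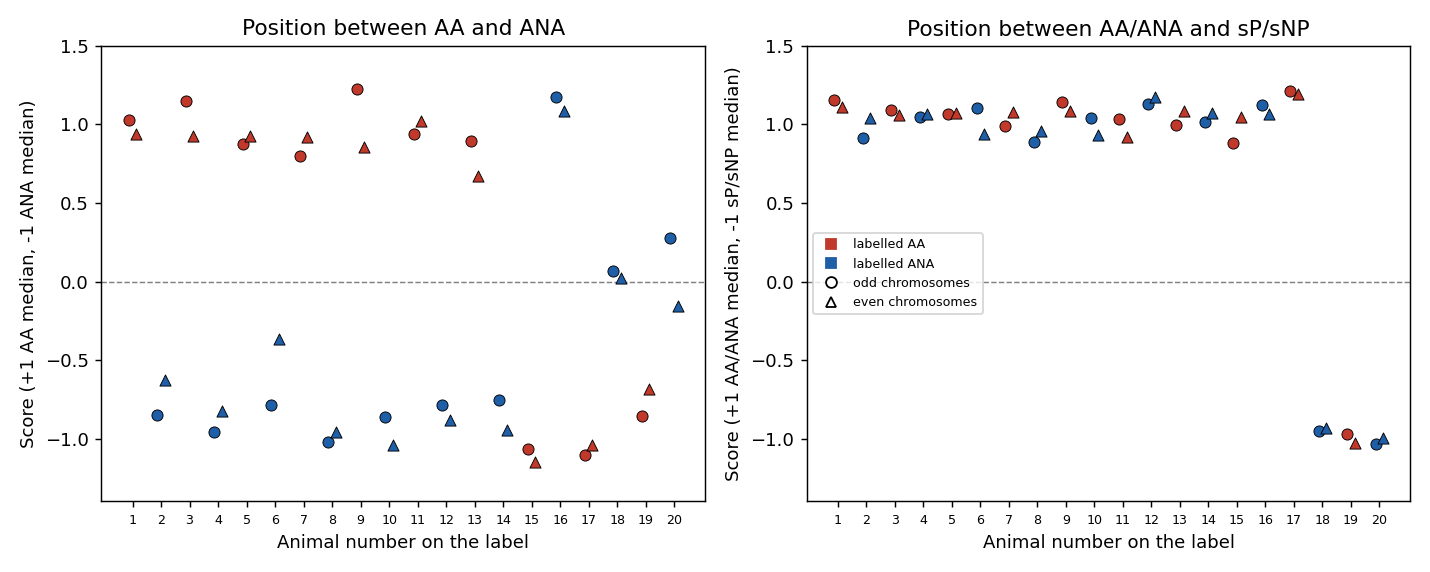
Scores of the 20 arrays by animal number; colour gives the line on the label, circles odd and triangles even chromosomes. Left, position between the AA (+1) and ANA (-1) medians, with AA 15, AA 17 and AA 19 below 0 and ANA 16 near 1; right, position between AA/ANA (+1) and sP/sNP (-1), with ANA 18, AA 19 and ANA 20 near -1.

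Probe sets with 2 levels were then sought without use of the labels. On 40 probe sets the 20 sorted values fell into 2 levels at least 1 log2 unit apart, with 5 or more arrays at each level. Only 18 of the 40 carry 1 gene symbol. On 20 of these 40 probe sets the 7 AA arrays 1 to 13 stood at one level and the 7 ANA arrays 2 to 14 at the other. These 20 were picked by the labels of those 14 arrays, so counts on them are not separate evidence from the score. On those 20 probe sets AA 15 and AA 17 stood with ANA in 20 of 20, ANA 16 stood with AA in 20 of 20, and ANA 18, AA 19 and ANA 20 each stood with AA in 8 and with ANA in 12. Over all 40 probe sets the last 3 arrays shared the level of sP arrays in 97.5% to 98.8% of pairings, and that of AA 1 to 13 in 43.9% to 46.4%.

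Results are therefore given in 3 ways: with all 20 arrays as labelled; with 15 arrays, without the 5 misfits (7 AA, 8 ANA); and with 14 arrays, after also leaving out ANA 20 (7 AA, 7 ANA), a choice made after seeing the data. Removing arrays because they look like the opposite line enlarges the differences by construction, and p-values of the 15 and 14 arrays do not carry that choice. A gene or probe set is said to be called, or to have risen or fallen in AA against ANA, when limma's p, adjusted by Benjamini-Hochberg across the 31042 probe sets, was under 0.05. Differences are AA minus ANA on the log2 scale with a standard error (SE).

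With all 20 arrays as labelled, 0 of 31042 probe sets were called (0% of those tested). The smallest adjusted p in limma was 0.376, and 1528 probe sets, or 4.92%, had an unadjusted p under 0.05. With limma's array weights, which give less weight to arrays that depart from their group, 207 probe sets were called, and a fit of all 10 groups with 1 shared variance called 203. Without ANA 18, AA 19 and ANA 20 alone the count stayed at 0.

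With 15 arrays, 559 probe sets were called, 1.8% of those tested, 256 higher and 303 lower in AA. With 14 arrays, 775 were called (2.5%), 376 higher and 399 lower. Lines did not overlap on 255 of the 559 and 431 of the 775, and over all probe sets on 0.931% and 1.57%. The 2 sets share 536 probe sets, 95.9% of the first and 69.2% of the second, all with the same sign. Counted by gene, at 1 probe set per gene, 84 of 14217 genes (0.591%) were higher and 111 (0.781%) lower in AA with 15 arrays, against 133 (0.935%) and 163 (1.15%) with 14 arrays. The median size of a called gene's difference was 0.48 with 15 arrays, and 19 of these 195 genes differed more than 2-fold.

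The choice of arrays and the test were also kept on separate chromosomes. When arrays were left out by their score on odd chromosomes alone, 214 of 9575 probe sets on even chromosomes were called (2.23%). When arrays were left out by even chromosomes, 155 of 10561 on odd chromosomes were called (1.47%). With all 20 arrays, 0 of these 20136 probe sets were called.

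Arrays that took no part in the 14-array comparison show how their levels fall on its 775 called probe sets. AA 15 was nearer to the ANA mean on 679 of them and AA 17 on 633, and ANA 16 was nearer to the AA mean on 654. ANA 18, AA 19 and ANA 20 were nearer to the AA mean on 361, 367 and 376, which is close to an even split. Over all probe sets AA 15, ANA 16 and AA 17 were nearer to the AA mean on 40.1%, 56.5% and 46.4%. These 3 arrays had been left out for their score on probe sets that separate the lines, so their side on the called probe sets follows in part from that choice. The same holds where their levels are given for single genes below, and those levels are not separate evidence.

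**Figure D2:**
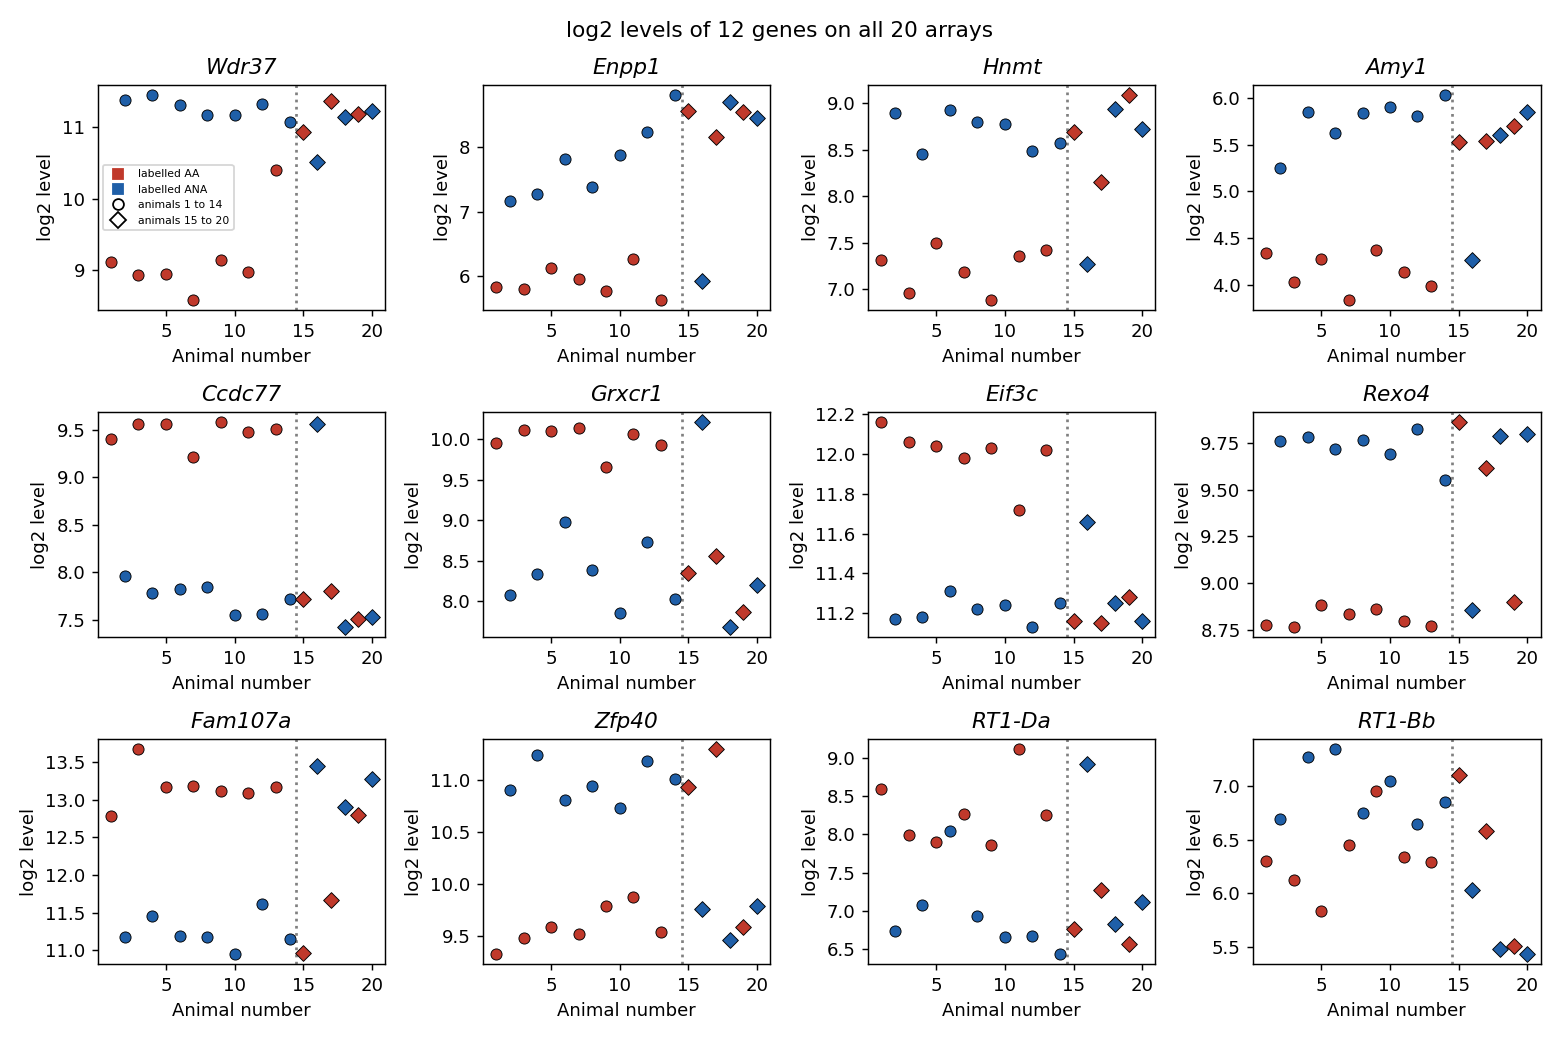
log2 levels of 12 genes by animal number; red is labelled AA, blue labelled ANA, circles are animals 1 to 14 and diamonds animals 15 to 20. In Ccdc77, for example, AA 1 to 13 lie between 9.22 and 9.58, ANA 2 to 14 between 7.55 and 7.96, ANA 16 at 9.56 and AA 15, AA 17 and AA 19 at 7.72, 7.81 and 7.51.

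The largest decrease in AA was in Wdr37, which encodes a WD40 repeat protein. Its log2 level was 8.59 to 9.14 in AA 1, 3, 5, 7, 9 and 11, 10.40 in AA 13, and 11.07 to 11.44 in the 7 ANA arrays 2 to 14. AA 15, AA 17 and AA 19 were at 10.93, 11.36 and 11.18, inside or just below the ANA range, and ANA 16 was at 10.51, next to AA 13. The difference was -1.41 (SE 0.318, limma adjusted p = 0.502) with all 20 arrays and -2.10 (SE 0.185, adjusted p = 2.33e-06), a 4.28-fold lower level, with 15. A second probe set for Wdr37 differed by -0.04 (adjusted p = 0.862 in limma with 15 arrays), so the decrease was seen by 1 of 2 probe sets.

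Among the other genes with the largest decreases, Hnmt, histamine N-methyltransferase, which inactivates histamine in brain, was at 6.89 to 7.49 in the 7 AA arrays 1 to 13 (median 7.31) and at 8.45 to 8.93 in the 8 ANA arrays kept (median 8.75). These ranges do not overlap, and ANA 16 stood at 7.28, inside the AA range. With 15 arrays Hnmt fell by 1.47 in AA (SE 0.104, limma adjusted p = 1.48e-07), a 2.78-fold lower level. With all 20 its difference was -0.93 (adjusted p = 0.616 in limma). A dim second Hnmt probe set, with a mean log2 level of 4.25, did not pass the test.

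Aadat, which encodes kynurenine aminotransferase II, the enzyme that turns kynurenine into kynurenic acid, was at 5.86 to 6.54 in AA (median 6.45) and at 7.18 to 8.33 in ANA (median 7.94). It fell 2.81-fold with 15 arrays (-1.49, SE 0.147, limma adjusted p = 9.93e-06). With all 20 its difference was -0.84 (adjusted p = 0.721 in limma). Enpp1, an ectoenzyme that splits extracellular ATP into AMP and pyrophosphate, was at 5.63 to 6.27 in AA and 7.17 to 8.81 in ANA, with medians of 5.83 and 7.85. Enpp1 fell 3.92-fold with 15 arrays (-1.97, SE 0.213, limma adjusted p = 2.75e-05) and 3.7-fold with 14. With all 20 arrays the Enpp1 difference was -1.10 (adjusted p = 0.929 in limma). In both genes the lines did not overlap with 15 arrays, and AA 15 and AA 17 lay at the ANA level.

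Amy1, an amylase gene, was at 3.84 to 4.37 in AA (median 4.14) and at 5.25 to 6.03 in ANA (median 5.84), both low on the array scale. It fell 3.09-fold with 15 arrays (-1.63, SE 0.105, limma adjusted p = 3.9e-08). With all 20 its difference was -1.03 (adjusted p = 0.502 in limma). Slc13a3, a sodium-coupled dicarboxylate transporter, fell 2.45-fold, and Acsm5, a mitochondrial acyl-CoA synthetase, 2.09-fold (limma adjusted p = 0.00959 and 0.0194). ANA 20 decided part of these last values: it stood at 7.58 for Slc13a3 and 5.12 for Acsm5, and without it the lines did not overlap in either gene and the folds were 2.84 and 2.43.

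Other genes that fell encode proteins of diverse roles. Siglec5, a sialic acid-binding receptor of immune cells, was at 5.45 to 5.91 in AA and 6.49 to 8.49 in ANA and fell 3.38-fold with 15 arrays. The top ANA value was that of ANA 20. Without it ANA reached 7.82 and the Siglec5 fold was 3.03. Nom1, a nucleolar protein, fell 3.28-fold with 15 and 3.05-fold with 14 arrays on its brightest probe set. The Nom1 ranges overlapped, since ANA reached down to 8.08 and AA up to 8.20. Its other probe sets differed by -0.553 (limma adjusted p = 0.0385) and -0.337 (adjusted p = 0.301) with 15 arrays. Brcc3-ps7, annotated as a pseudogene of a deubiquitinase subunit, fell 3.49-fold with 15 arrays, with ANA spread from 7.03 to 9.86. The top value was that of ANA 20, and without it the fold was 3.19. A probe set for a pseudogene can also match the parent gene. Zfp40, a zinc finger gene, fell 2.36-fold with 15 arrays and 2.62-fold without ANA 20, which lay at the AA level of 9.78.

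Chmp1b, a subunit of the ESCRT-III membrane scission machinery, was at 7.92 to 8.50 in AA and 9.07 to 9.77 in ANA on its brightest probe set, and fell by 1.06 (SE 0.105, limma adjusted p = 1.12e-05). Its 3 other probe sets went the other way, by 0.38, 0.68 and 1.08, and 2 of these rose past the test. Probe sets of 1 gene went in opposite directions also for Zbtb20 and Atpaf1, which were chosen here after their values were seen. In all, 281 genes had a called probe set with 15 arrays, and 154 of these genes have several probe sets. Of the 154, 26 had 2 or more called, 23 with 1 direction and 3 with both.

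Ccdc77, a coiled-coil protein gene, had the largest increase in AA with 15 arrays. It was at 9.22 to 9.58 in AA (median 9.52) and 7.53 to 7.96 in ANA (median 7.75), with ANA 16 at 9.56 and AA 15 at 7.72. It rose 3.38-fold with 15 arrays (1.76, SE 0.0807, limma adjusted p = 4.05e-10), and a second probe set rose by 2.36. With all 20 the difference of the first probe set was 1.06 (adjusted p = 0.66 in limma). Grxcr1, a glutaredoxin-related gene known from sensory hair cells, was at 9.66 to 10.14 in AA and 7.85 to 8.97 in ANA. It rose 3.19-fold with 15 arrays (SE 0.141 log2 units, limma adjusted p = 1.25e-06). With all 20 the Grxcr1 difference was 1.025 (adjusted p = 0.721 in limma). Neither gene's ranges overlapped with 15 arrays.

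Fam107a, an actin-associated gene known to respond to stress and glucocorticoids, was at 12.79 to 13.67 in AA (median 13.17). Among ANA, animals 2 to 14 were at 10.95 to 11.61 and ANA 20 at 13.28. It rose 3.18-fold with 15 arrays (1.67, SE 0.261, limma adjusted p = 0.00141) and 3.79-fold without ANA 20 (1.92, SE 0.115). A second, dimmer Fam107a probe set differed by 0.753 with 15 arrays, which did not pass the test (limma adjusted p = 0.0976). With 14 arrays it rose by 0.925 (adjusted p = 0.00201). On its brightest probe set Mx2, an interferon-induced GTPase with antiviral activity, was similar: AA was at 6.52 to 7.62, ANA 2 to 14 at 5.17 to 5.68 and ANA 20 at 7.82. It rose 2.53-fold with 15 and 3.11-fold with 14 arrays. A second Mx2 probe set also rose, by 1.68 with 15 and 1.298 with 14 arrays (limma adjusted p = 0.0326 and 0.000267). There ANA 20 stood at 4.75, below ANA 2 to 14 at 7.35 to 8.47 and AA 1 to 13 at 8.65 to 9.70, so the 2 probe sets place ANA 20 on opposite sides. In sP arrays the mean was 13.08 ± 0.21 (SD, n = 8) for the brightest Fam107a probe set and 7.86 ± 0.10 (SD, n = 8) for the brightest Mx2 probe set, at the level of ANA 20.

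Eif3c, a subunit of a translation initiation factor, was at 11.72 to 12.16 in AA and 11.13 to 11.31 in ANA, without overlap, and rose 1.73-fold (0.79, SE 0.0567, limma adjusted p = 1.58e-07), and its second probe set rose by 0.49. Plod2 and P3h4, both with roles in collagen modification, rose 1.9-fold each, P3h4 on 4 of its 5 probe sets. For Plod2 the lines overlapped with 15 arrays, since ANA 20 stood at 8.14, inside the AA range of 7.64 to 8.49. Ncaph, a condensin subunit, rose 1.9-fold, Pou2f1, the transcription factor Oct-1, 1.72-fold, and the kinase gene Nek3 1.71-fold. ANA 16 lay inside the AA range for Ncaph, Pou2f1, Nek3, Plod2 and P3h4, and ANA 18, at 7.96, for Plod2. ANA 16 had been left out for its resemblance to AA, so its place in these genes follows in part from that choice.

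Creg1, Sc5d and Plekhh1 are 3 further symbols, chosen after their values were seen, whose 2-level probe sets put AA 1 to 13 high and ANA 2 to 14 low. Zfp317 and Eri2 show the reverse. Other 2-level probe sets varied within the lines: Ephx2, soluble epoxide hydrolase, was at 7.27 to 7.67 in AA and ran from 7.27 to 9.29 in ANA (-0.85, SE 0.323, limma adjusted p = 0.254), and Mpeg1, a pore-forming protein of phagocytes, ran from 5.85 to 8.42 in AA and 6.71 to 10.54 in ANA (-1.33, SE 0.651, adjusted p = 0.415).

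With all 20 arrays, the 5 genes with the smallest p in each direction were given, none of them called. Agtr2, an angiotensin II receptor, Capn1, a calcium-dependent protease, Cyb561a3, Eif3c and Vsig10l were higher in AA, by 0.27 to 0.52. Chmp1b, Nepn, Pax6, Rexo4 and Wdr37 were lower, by -0.46 to -1.41. Their limma adjusted p ran from 0.502 to 0.554. With 15 arrays all but Capn1 (adjusted p = 0.0512) passed the test, and with 14 arrays Agtr2 did not either (adjusted p = 0.0573). Another Agtr2 probe set differed by 0.035 and another Vsig10l probe set by 0.057 with 15 arrays (limma adjusted p = 0.913 and 0.771). Rexo4, annotated as an exonuclease gene, had narrow levels within each line: 8.77 to 8.89 in AA 1 to 13 and 9.55 to 9.83 in ANA 2 to 14, with ANA 16 at 8.86 and AA 15 at 9.86. Pax6, a transcription factor of forebrain development, was at 8.92 to 9.46 in AA and 9.43 to 10.28 in ANA and fell 1.5-fold with 15 arrays. The top ANA value was that of ANA 20, and without it Pax6 fell 1.43-fold.

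**Figure D3:**
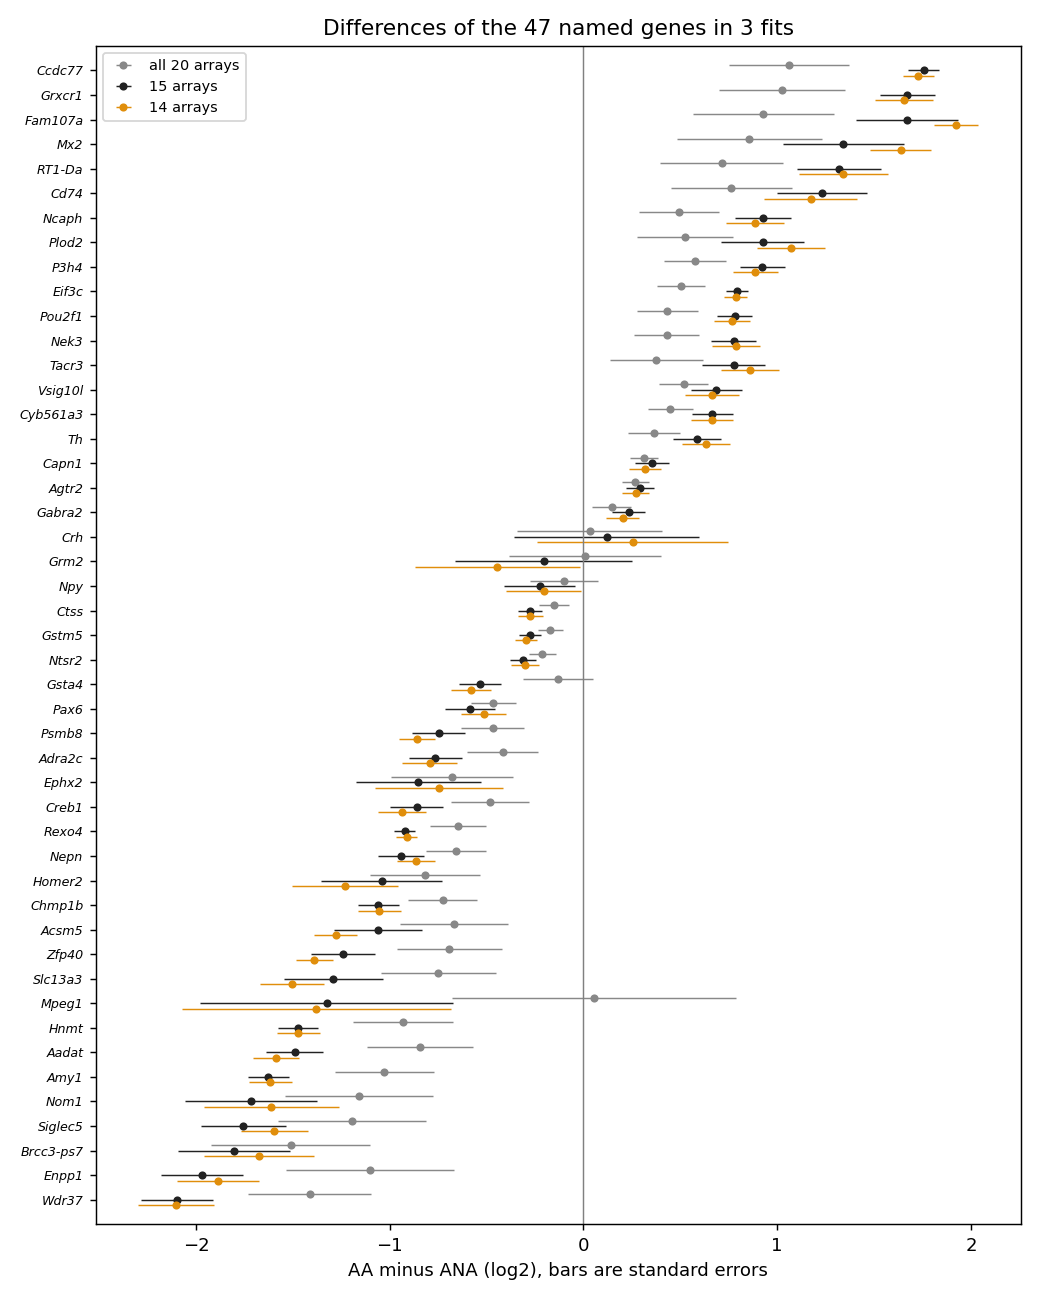
AA minus ANA (log2) with standard errors for the 47 named genes; grey is all 20 arrays, black 15 arrays and orange 14 arrays. Wdr37 lies at -1.41 in grey and -2.10 in black, Ccdc77 at 1.06 and 1.76, and Crh, Npy and Grm2 have standard errors that reach close to or across 0 in each fit.

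Genes of the MHC present peptides to T cells. Of 20 measured MHC members 2 rose and 1 fell with 15 arrays, beside 0.591% and 0.781% of all genes, and their median difference was -0.00206. Psmb8, a subunit of the immunoproteasome that cuts peptides for class I, was at 7.11 to 7.53 in AA and 7.31 to 8.55 in ANA and fell 1.68-fold (limma adjusted p = 0.00576). The overlap came from ANA 20 at 7.31; without it the fold was 1.81. Psmb9, another immunoproteasome subunit, had a difference of -0.44 (adjusted p = 0.228 in limma with 15 arrays).

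Class II molecules are pairs of an alpha and a beta chain, and Cd74, the invariant chain, guides them to the compartment where peptides are loaded. RT1-Da, the alpha chain of one pair, read 8.60, 7.997, 7.90, 8.27, 7.87, 9.11 and 8.25 in AA 1, 3, 5, 7, 9, 11 and 13. In ANA 2, 4, 6, 8, 10, 12 and 14 it read 6.74, 7.09, 8.05, 6.94, 6.66, 6.68 and 6.44. All of these AA arrays were above all of these ANA arrays but ANA 6. Among the later animals, AA 15, AA 17 and AA 19 read 6.77, 7.27 and 6.57, and ANA 16, ANA 18 and ANA 20 read 8.92, 6.83 and 7.11.

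RT1-Da rose 2.5-fold with 15 arrays (SE 0.218 log2 units, limma adjusted p = 0.00225), and Cd74 rose 2.35-fold (1.231, SE 0.231, adjusted p = 0.00674) with AA at 8.06 to 9.54 and ANA at 7.004 to 8.48. With all 20 arrays RT1-Da and Cd74 differed by 0.71 and 0.76 (limma adjusted p = 0.983 and 0.948). RT1-Db1, the beta chain that pairs with RT1-Da, was at 6.26 to 6.94 in AA 1 to 13 and 5.89 to 6.64 in ANA 2 to 14 (0.53, SE 0.146, limma adjusted p = 0.0806 with 15 arrays). A dimmer RT1-Db1 probe set differed by 0.047 with 15 arrays (limma adjusted p = 0.79). Of the other pair, the brightest RT1-Ba probe set differed by 0.12 (adjusted p = 0.631 in limma). A dimmer RT1-Ba probe set, at 6.85 to 7.89 in AA 1 to 13 and 6.25 to 7.08 in ANA 2 to 14, rose by 0.66 with 15 arrays and 0.70 with 14 (limma adjusted p = 0.0415 and 0.03). The remaining 2 RT1-Ba probe sets differed by 0.13 and 0.34 and did not pass the test. RT1-Bb had a difference of -0.43 (adjusted p = 0.457 in limma with 15 arrays) and fell by 0.62 with 14 (SE 0.152, adjusted p = 0.039), with 5.83 to 6.95 in AA 1 to 13 and 6.65 to 7.34 in ANA 2 to 14. A dimmer RT1-Bb probe set, at 4.25 to 4.53 in AA 1 to 13, did not fall. It differed by 0.05 with 15 and 0.06 with 14 arrays (limma adjusted p = 0.741 and 0.667). Class II genes are highly polymorphic, and a sequence difference under the probes and a change in RNA cannot be told apart here.

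Class II genes share a promoter element, the Y box, that binds the factor NF-Y. The 250 bases before the start of 4 class II genes are shown because RT1-Da rose and these neighbours on chromosome 20 had unequal values; the sequences are from RefSeq on GRCr8, and capitals mark the letters CTGATTGG. RT1-Da lies at chr20:4515165-4515414 on the plus strand, RT1-Db1 at chr20:4560163-4560412 on the minus strand, RT1-Ba at chr20:4576807-4577056 on the plus strand and RT1-Bb at chr20:4604119-4604368 on the minus strand.
RT1-Da: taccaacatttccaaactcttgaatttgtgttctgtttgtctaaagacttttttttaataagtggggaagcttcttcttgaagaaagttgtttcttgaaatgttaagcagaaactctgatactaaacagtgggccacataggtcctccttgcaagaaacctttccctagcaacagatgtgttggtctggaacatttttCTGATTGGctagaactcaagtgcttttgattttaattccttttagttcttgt
RT1-Db1: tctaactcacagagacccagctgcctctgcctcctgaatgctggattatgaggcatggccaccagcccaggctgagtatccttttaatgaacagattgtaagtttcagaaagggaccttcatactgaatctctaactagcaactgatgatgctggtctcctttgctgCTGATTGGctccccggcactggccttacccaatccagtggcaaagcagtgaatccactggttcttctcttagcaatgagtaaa
RT1-Ba: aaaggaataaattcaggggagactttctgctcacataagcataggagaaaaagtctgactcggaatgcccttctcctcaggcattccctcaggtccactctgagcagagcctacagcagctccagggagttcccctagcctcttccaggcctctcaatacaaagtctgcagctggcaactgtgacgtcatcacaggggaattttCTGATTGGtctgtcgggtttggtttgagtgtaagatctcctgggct
RT1-Bb: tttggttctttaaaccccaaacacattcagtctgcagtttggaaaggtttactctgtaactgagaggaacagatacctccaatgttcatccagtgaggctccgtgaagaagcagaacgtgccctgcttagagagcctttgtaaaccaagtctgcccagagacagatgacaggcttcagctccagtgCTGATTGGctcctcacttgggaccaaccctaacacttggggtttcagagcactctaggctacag
The letters were searched on both strands, and the first capital stands 52, 83, 46 and 64 bases before the start in that order. All 4 promoters hold 1 match each, and 1068 of the 33469 promoters searched at this length hold at least 1 (3.19%). The match is a description of these windows only.

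Monoamine genes were called in both directions. Th, tyrosine hydroxylase, the first enzyme of dopamine and noradrenaline synthesis, was at 6.71 to 7.58 in AA and 6.25 to 6.81 in ANA and rose 1.5-fold with 15 arrays (limma adjusted p = 0.0181). Adra2c, a noradrenaline receptor that inhibits release, was at 8.04 to 8.65 in AA and 8.63 to 9.57 in ANA and fell 1.7-fold (adjusted p = 0.005). With all 20 arrays Th and Adra2c differed by 0.36 and -0.42 (limma adjusted p = 0.897 and 0.983). These were 2 of 29 measured members (6.9%, beside 1.372% of all genes called with 15 arrays), and the list median was -0.02.

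Neuropeptides themselves did not pass the test: with 15 arrays limma called 0 of 23, and 2 of 23 (8.7%) had an unadjusted p under 0.05, beside 12.5% of all 14217 genes in that fit. Npy, neuropeptide Y, ran from 10.85 to 12.15 in AA (median 11.50) and 10.86 to 11.99 in ANA (median 11.82), a difference of -0.23 (SE 0.182, adjusted p = 0.661 in limma). Crh ran from 8.07 to 11.21 in AA and 8.13 to 10.70 in ANA, a difference of 0.12 (SE 0.477, adjusted p = 0.944). The Crh ranges of the lines overlapped almost fully. Among 26 neuropeptide receptor genes 1 rose and 1 fell (7.69% called, beside 1.372% of all genes). Tacr3, the receptor of neurokinin B, was at 8.18 to 9.13 in AA and 7.52 to 8.49 in ANA and rose 1.71-fold (limma adjusted p = 0.0147); Ntsr2, a neurotensin receptor of astrocytes, fell by 0.31 (adjusted p = 0.0204).

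Of 18 GABA genes limma called 0 with 15 arrays, with 2 (11.1%, beside 12.5% of all genes) at an unadjusted p under 0.05. Gabra2, a GABA-A receptor subunit studied in alcohol dependence, was at 11.96 to 12.50 in AA and 11.77 to 12.23 in ANA, a difference of 0.23 (SE 0.086, adjusted p = 0.233 in limma). Of 29 glutamate genes limma called 0 with 15 arrays, with 5 (17.2%, beside 12.5%) at an unadjusted p under 0.05. Grm2, the presynaptic metabotropic glutamate receptor mGluR2, ran from 6.29 to 10.13 in AA and 6.29 to 9.01 in ANA (-0.21, SE 0.457, adjusted p = 0.895). Homer2, a postsynaptic scaffold protein, was at 5.62 to 6.17 in AA and 5.61 to 7.89 in ANA; its difference was -1.04 (SE 0.311, adjusted p = 0.119) with 15 arrays, and it fell by 1.232 with 14 (adjusted p = 0.0207 in limma).

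Of 20 measured genes of alcohol and aldehyde metabolism limma called 0 with 15 arrays, with 5 (25%, beside 12.5%) at an unadjusted p under 0.05. With 14 arrays 2 of 20 fell, beside 1.15% of all genes: Aldh2, the mitochondrial enzyme that oxidises acetaldehyde, by 0.43 (SE 0.0857, limma adjusted p = 0.00969) and Aldh9a1 by 0.30 (SE 0.0615, adjusted p = 0.0126). With 15 arrays their differences were -0.34 and -0.26 (adjusted p = 0.186 and 0.0573). Among 36 glutathione and antioxidant genes, Gsta4 and Gstm5, both glutathione transferases, fell by 0.53 and 0.28 with 15 arrays (limma adjusted p = 0.0107 and 0.0154). They make up 5.56% of the list, beside 0.781% of all genes that fell. The lines did not overlap for Gsta4, at 9.76 to 10.22 in AA and 10.26 to 10.90 in ANA.

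Creb1, the cAMP-response transcription factor, was the 1 called gene of 22 in cAMP and kinase signalling with 15 arrays (4.55%, beside 1.372% of all genes). Its brightest probe set was at 7.81 to 8.24 in AA and 8.33 to 9.52 in ANA and fell 1.82-fold (-0.86, SE 0.137, limma adjusted p = 0.00167). With all 20 arrays it differed by -0.48 (adjusted p = 0.949 in limma). The 3 other Creb1 probe sets, with mean log2 levels of 4.17 to 5.05, differed by 0.05 to 0.08 with 15 arrays and did not pass the test. Of 21 glucocorticoid receptors and response genes, 20 were lower in AA with all 20 arrays, while 7254 of all 14217 genes were higher. The list median was -0.12 against 0.00193 for all genes. Limma called 0, with 2 (9.52%, beside 4.4% of all genes) at an unadjusted p under 0.05. With 15 arrays 18 were lower, limma called 0, and the 9.52% at an unadjusted p under 0.05 stood beside 12.5% of all genes. With 14 arrays 4 of the 21 were higher. Over all 27 lists 11 of 453 measured genes were called with 15 arrays (2.43%) and 16 with 14 (3.53%), beside 1.372% and 2.082% of all genes.

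No marker of striatal, oligodendrocyte, or basolateral and cortical cells passed limma's test in any of the 3 fits. Of 13 markers of striatal neurons, 12 were lower in AA in both fits, with a median of -0.28 over 20 and -0.47 over 15 arrays. With 15 arrays 8 of them (61.5%, beside 12.5% of all genes) had an unadjusted p under 0.05, and with 20 arrays 0. Adora2a, an adenosine receptor of striatal output neurons, ran from 8.40 to 11.22 in AA 1 to 13 and 10.02 to 11.73 in ANA 2 to 14 (-1.03, SE 0.357, limma adjusted p = 0.203); Ppp1r1b, the phosphoprotein DARPP-32, ran from 9.63 to 12.05 and 11.58 to 12.43. The mean log2 level of the list was 9.86 to 11.23 in AA 1 to 13 and 10.53 to 11.53 in ANA 2 to 14, lowest in AA 1.

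Of 15 oligodendrocyte markers, 13 were lower in AA, with a median of -0.33 with 15 arrays; limma called 0, with 2 (13.3%, beside 12.5%) at an unadjusted p under 0.05. Mog, a myelin protein, ran from 10.88 to 12.77 in AA 1 to 13 and 11.77 to 12.91 in ANA 2 to 14. Of 13 basolateral and cortical markers, 11 were higher in AA, with a median of 0.26, and limma called 0, with 1 (7.69%, beside 12.5%) at an unadjusted p under 0.05. The mean level of central amygdala markers overlapped between the lines, at 10.85 to 11.55 in AA 1 to 13 and 10.75 to 11.42 in ANA 2 to 14. In these dissected samples fewer cells of a type and less RNA per cell cannot be told apart, and the part of these markers in the called genes was not tested. Among the other marker lists with 15 arrays, 1 of 13 microglial markers (7.69%) was called, Ctss, a lysosomal protease, which fell by 0.27. Of 12 astrocyte markers 1 was called (8.33%), Ntsr2. The share over all genes was 1.372%.

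**Figure D4:**
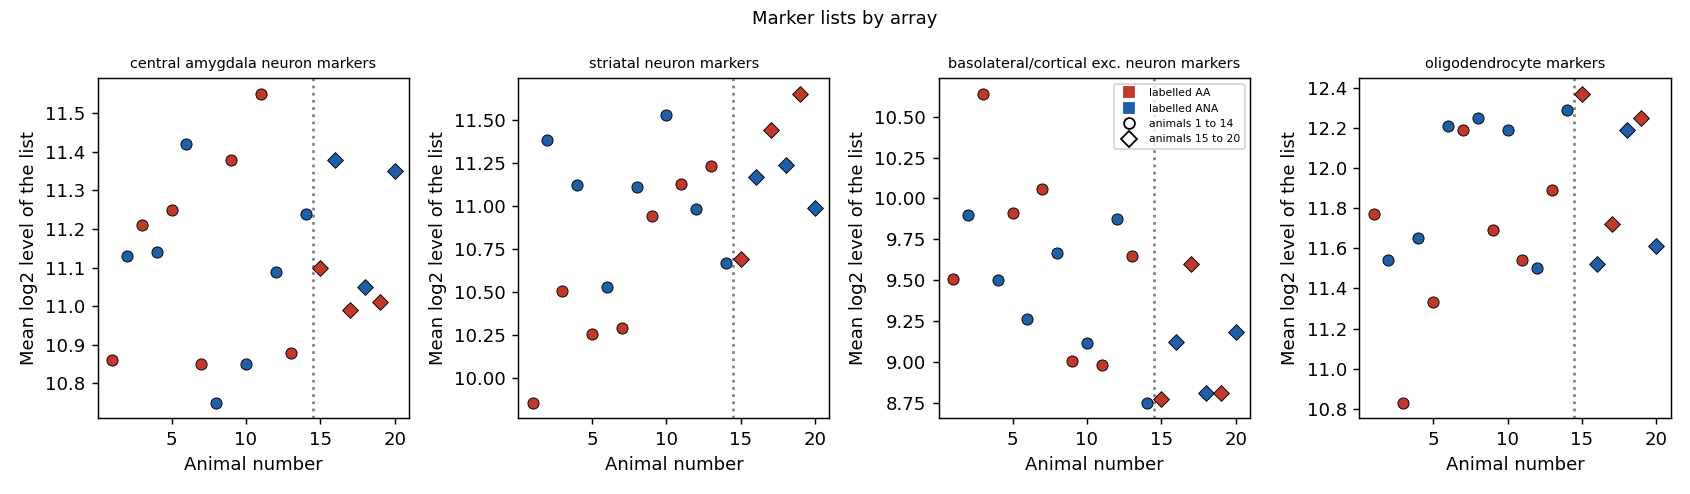
Mean log2 level of 4 marker lists by animal number, red for labelled AA and blue for labelled ANA, diamonds for animals 15 to 20. For striatal markers, the lowest array is AA 1 at 9.86 and the highest AA 19 at 11.65; central amygdala markers of both lines overlap for most arrays.

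Called genes lay on all chromosomes tested but Y, which holds 4 measured genes. Over all genes, 1.372% were called with 15 arrays. With 15 arrays the share was highest on chromosome 20, where 13 of 399 genes were called (3.26%, 10 higher and 3 lower in AA), and on chromosome 18 with 10 of 328 (3.05%, 2 higher and 8 lower), and lowest on chromosome 6 with 2 of 603 (0.332%). Genes that neighbour each other among the measured genes were both called in 7 cases, each with the same direction: Hnmt beside Nid2-ps16, Etfb beside Vsig10l, Tyw3 beside Cryz, Fam83d beside Dhx35, Dlg1 beside Bdh1, Pcdhb17 beside Pcdhb19, and Timm8a1 beside Btk. Of the 194 called genes with a known place, 14 (7.22%) had a called neighbour with 15 arrays. A gene has neighbours on both sides, so this share cannot be set directly against 1.372%, and it was not tested. With 14 arrays there were 14 such pairs, 8 of them with the same direction. These pairs were named after their values were seen.

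The AA and ANA difference was set against the mean difference of the 4 other line pairs, in 1 fit of all 96 arrays as labelled. For 224 of 31042 probe sets (0.722%) it departed from that mean, 109 upward and 115 downward. The 5 genes with the largest departure were Amy1, Brcc3-ps7, Wdr37, Enpp1 and Grxcr1. For Wdr37 the departure was -1.44 (SE 0.195, limma adjusted p = 2.03e-06): the preferring minus non-preferring difference was 0.24 in HAD1/LAD1, -0.14 in HAD2/LAD2, -0.02 in P/NP and 0.03 in sP/sNP. For Hnmt it was -1.03 (SE 0.171, adjusted p = 0.000101), with -0.07, 0.09, 0.36 and 0.02 in the same order.

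Amy1 departed by -1.92 (SE 0.372, limma adjusted p = 0.00124) in part because other pairs went the other way: it was higher in HAD1 than in LAD1 by 3.21 (adjusted p = 0.00508) and in HAD2 than in LAD2 by 0.81 (adjusted p = 0.00065). Enpp1 departed by -1.13 (SE 0.278, adjusted p = 0.0216) and Grxcr1 by 1.10 (SE 0.249, adjusted p = 0.00893), and neither was called in any other pair as labelled. Brcc3-ps7 departed by -1.61 (SE 0.284, adjusted p = 0.000258). Without the misfit arrays 1150 probe sets (3.7%) departed, and also without ANA 20, 1123 (3.62%). Misfit arrays of the other pairs, where they exist, were not left out here.

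**Figure D5:**
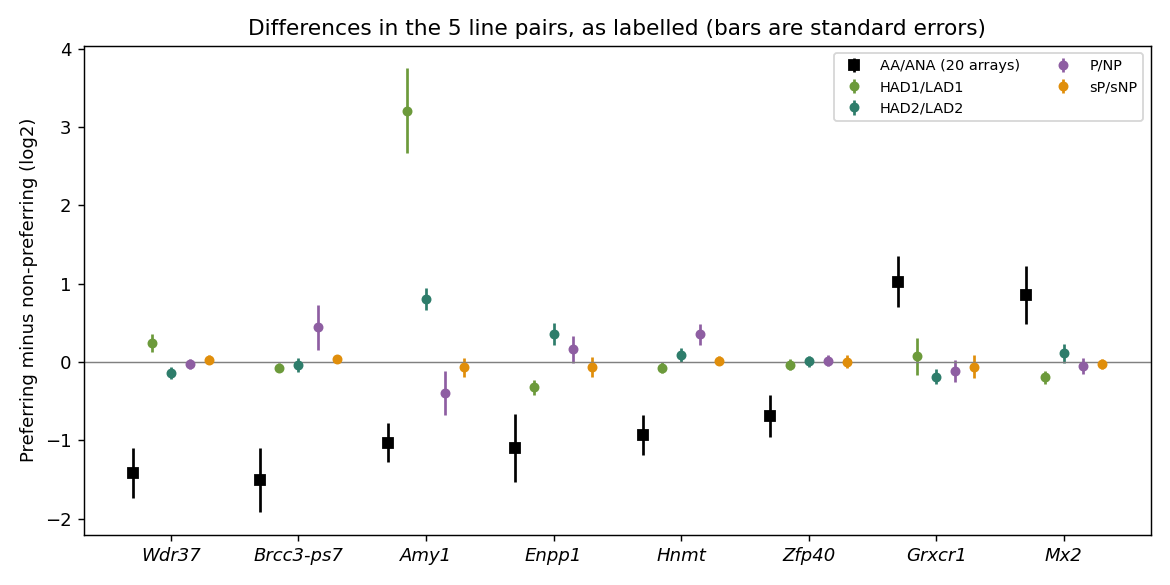
Preferring minus non-preferring difference (log2) with standard errors for 8 genes in the 5 line pairs, arrays as labelled; black squares are AA/ANA. Wdr37 is at -1.41 in AA/ANA and between -0.14 and 0.24 in the other pairs, while Amy1 is at -1.03 against 3.21 in HAD1/LAD1.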

How the data were processed

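Biotin-labelled cRNA was made from 25 ng of total RNA by a 2-cycle protocol and hybridised to rat arrays, per the labels' protocols. The deposited values are log2 values made by the authors with RMA, per the submitters' processing notes; no version or normalization set is named there. Arrays were fitted with limma 3.58.1 in R 4.3.3 (lmFit, eBayes with an intensity trend, two-sided) on the deposited log2 values. The 57 control probe sets were left out; of 31042 others, 20826 carry 1 symbol, 436 several and 9780 stay unnamed, and 20758 matched the GRCr8 RefSeq table, used for names, chromosomes, gene order and promoters. Each gene is represented by the brightest probe set (mean of 96 arrays) among those with that 1 symbol. The score is the median position on 100 probe sets ranked by the difference of medians over the summed median absolute deviations plus 0.1.

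Named genes: with all 20 arrays those called or, failing that, the 5 smallest p per direction; with 15 arrays the 12 largest called differences per direction; per list up to 2 called members per direction; the 5 largest departures from other pairs; the 10 largest 2-level gaps, of which 8 genes were present in the table of brightest probe sets; and Npy, Grm2, Crh and Gabra2. Symbols without an informative name were skipped. Members and lists were chosen with earlier results of these data known. Of 510 list genes 453 were measured. Each array is 1 animal per its title, the number of arrays limits the precision, and no detection calls were used. Both the fit and the score were tested on simulated data. Alternatives covered array weights, variance trend, samples in the fit, probe set choice, dim probe sets, normalization, animal number and GAPDH ratio as covariates, and each array left out. The table had 0 unassigned value columns.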

Additional observations from a re-analysis of the deposited data

Results flagged for a closer look

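Of 130 groups of arrays checked (a measure or named gene in 1 line), 21 held 1 array far from the others of its line. Chance gives about 1 in 20 for groups not chosen by their values. Many genes here were named for a large difference without the misfit arrays, so the 21 cannot be read against that rate. In AA, AA 19 stood apart in its position against sP and sNP, at -0.97 on odd and -1.03 on even chromosomes, and in Brcc3-ps7 (log2 level 10.09), Ephx2 (9.26) and Siglec5 (8.495). AA 17 stood apart in the log2 3' to 5' ratio of GAPDH (0.861) and of actin (3.68) and in Tacr3 (log2 level 6.51). AA 15 stood apart in its array median (7.80) and in Mx2 (log2 level 5.09).

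In ANA, ANA 16 stood apart in its score on even chromosomes (1.08) and in 8 genes, at a log2 level of 4.27 for Amy1, 9.56 for Ccdc77, 8.395 for Chmp1b, 11.66 for Eif3c, 10.21 for Grxcr1, 7.28 for Hnmt, 8.855 for Rexo4 and 10.51 for Wdr37. ANA 6 had the lowest array median (7.77) and ANA 14 the lowest Npy (10.86). Many of these values come from 1 array each and are not separate evidence.

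The AA and ANA difference departed from the mean of the 4 other line pairs, by limma's test of that difference with all arrays as labelled, for 224 probe sets. Among the named genes it was lower by -0.83 for Aadat, -1.92 for Amy1, -1.61 for Brcc3-ps7, -0.77 for Chmp1b, -1.13 for Enpp1, -1.03 for Hnmt, -0.52 for Nepn, -1.44 for Wdr37 and -0.69 for Zfp40. It was higher by 0.35 for Agtr2, 1.02 for Ccdc77, 0.46 for Cyb561a3, 0.44 for Eif3c, 1.10 for Grxcr1, 0.89 for Mx2 and 0.54 for Vsig10l.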

How the results depend on the processing

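With all 20 arrays the count of 0 became 207 with array weights and 203 with all 10 groups in 1 fit, and ran from 0 to 10 with each array left out (10 without ANA 16). With 15 arrays the count of 559 became 1158 with array weights, 1099 with all 10 groups in 1 fit, 185 with 1 probe set per gene (adjusted over those alone), 306 above the median level and 369 with arrays chosen on the other chromosomes; the last 3 test fewer probe sets, and for the rest the cause was not tested. It ran from 424 to 775 with each array left out. Of 47 named genes 39 were called with 15 arrays, 25 above the median level and 34 to 41 with each array left out. The calls lost most often were those of Agtr2 (18 of 24 settings), Mx2 (11 of 25), Plod2 (10 of 25) and Ctss (9 of 26). The contrast with other line pairs gave 224, and 1150 without misfit arrays, 1123 also without ANA 20 and 40 with 1 probe set per gene. A gap of 1.5 log2 units left 13 of 40 probe sets at 2 levels. Genes called in lists went from 0 to 11 with 15 arrays and 16 with 14. Differences near 0 changed sign with all 20 arrays: Grm2 (0.01) was -0.37 with array weights, -0.094 with animal number, -0.069 with the GAPDH ratio and -0.27 without ANA 18, AA 19 and ANA 20; Mpeg1 (0.05) was -0.30 with array weights, -0.047 with the GAPDH ratio and -0.29 without those 3 arrays. With each array left out, Crh ran from -0.16 to 0.23 over 20 and -0.11 to 0.42 over 15 arrays, Grm2 from -0.26 to 0.17 and -0.60 to 0.039, and Mpeg1 from -0.24 to 0.35 over 20. No paired analysis was possible because AA and ANA share no animal numbers. The number of arrays and dim probe sets limit small differences.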
